A study of Homo sapiens with 10 samples.

Results

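HLA class I molecules are the surface proteins that show fragments of a cell's own proteins to CD8 T cells and natural killer (NK) cells. Each is a heavy chain, encoded in the major histocompatibility complex, bound to the small light chain beta-2-microglobulin, without which most of the heavy chains do not reach the surface. Their amount on tumour cells matters for immune recognition, and loss of these molecules is a known route of immune escape. The 5 genes described here are 4 heavy chain genes, HLA-B, HLA-C, HLA-E and HLA-F, and the light chain gene B2M. They were taken by gene name from every deposited list of m6A peaks, and account for 5 of 5000 gene names and 71 of 26273 peaks over 7 lists. m6A is a methyl mark on adenosines of RNA, laid down by a methyltransferase complex and bound by reader proteins that act on splicing, translation and decay of the transcript.

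The mark was mapped by MeRIP-seq, in which an antibody against m6A pulls down RNA fragments for sequencing beside input RNA. All 10 samples came from V16A cells, an established line of prostate cancer resistant to castration: 2 pulled-down libraries of hypoxia, 2 of normoxia, 1 labelled EU 40min, and an input for each, whose levels were not analysed here. The labels give no genotype, oxygen level, duration of hypoxia or agent for the hypoxia and normoxia groups, no oxygen condition for the EU library, and no statement that replicates were separate cultures, so a spread between replicates may be technical. EU is read here as ethynyl uridine, a nucleoside that marks newly made RNA. The study's title asks whether m6A on nascent RNA is part of a T cell activation signature under hypoxia.

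The lists differed in length. Hypoxia replicates 1 and 2 held 2879 and 6621 peaks, normoxia replicates 1 and 2 held 212 and 1563, and the EU library held 5044. A condition list for hypoxia held 7669 and one for normoxia 2285. No source used here says how the condition lists were made, and 13 of the 16 hypoxia condition peaks in the 5 genes were identical to peaks of hypoxia replicate 2, so these lists were not taken as further replicates. No reads were counted here, so depth is unknown. A gene without a peak may be unmethylated, weakly expressed or shallowly sequenced. In such bulk samples fewer cells of a type and less RNA per cell cannot be told apart.

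The heavy chain genes are close copies of one another, which bears on how far their peaks can be told apart. The stretches here are the RefSeq bases (GRCh38.p14) over the start of the reading frame of 3 of them, in which capitals mark the 7 positions where the genes are not all alike. HLA-B lies at chr6:31357130-31357159 (minus strand), HLA-C at chr6:31272043-31272072 (minus strand) and HLA-F at chr6:29723454-29723483 (plus strand).
HLA-B: gAtGCTggtcatggcgccccgaACcGtcct
HLA-C: gAtGCGggtcatggcgccccgaGCcCtcct
HLA-F: gGtTGGggtcatggcgccccgaAGcCtcct
HLA-B and HLA-C shared 27 of these 30 bases, HLA-B and HLA-F 24, and HLA-C and HLA-F 25. Reads from such stretches can be placed on the wrong copy, and no source used here says how reads with several placements were treated. The alleles of a cell line can also differ from the reference. The stretch covers the start of the leader peptide, and fragments of such leaders are what HLA-E is best known to present. Among the peaks of all 7 lists, only the HLA-C peak of hypoxia replicate 2 covered its own stretch.

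Upstream of the start, the class I genes and B2M are known to share control elements, an interferon-stimulated response element and boxes bound by regulatory factors of the class I enhanceosome. They are shown as background, and any part of them in the peaks was not tested. The 1 peak that ran past the start of HLA-C ended at 31272130, short of the stretch shown. The stretches are HLA-B at chr6:31357225-31357340 (minus strand), HLA-C at chr6:31272138-31272290 (minus strand), HLA-F at chr6:29723272-29723387 (plus strand) and B2M at chr15:44711367-44711478 (plus strand), from RefSeq, GRCh38.p14. Capitals mark matches, on either strand, to the response element (GAAA, any 2 bases, GAAA), to a form 1 base shorter (GAA, any 2 bases, GAAA), to TGACG and to CCAAT.
HLA-B: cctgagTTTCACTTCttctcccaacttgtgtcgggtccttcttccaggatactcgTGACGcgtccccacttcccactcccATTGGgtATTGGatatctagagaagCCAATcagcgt
HLA-C: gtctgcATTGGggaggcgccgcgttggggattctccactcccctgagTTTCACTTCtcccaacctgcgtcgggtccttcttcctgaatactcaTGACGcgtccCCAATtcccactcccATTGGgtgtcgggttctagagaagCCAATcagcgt
HLA-F: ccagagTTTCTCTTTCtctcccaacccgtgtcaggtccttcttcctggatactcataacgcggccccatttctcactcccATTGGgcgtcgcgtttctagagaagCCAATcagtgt
B2M: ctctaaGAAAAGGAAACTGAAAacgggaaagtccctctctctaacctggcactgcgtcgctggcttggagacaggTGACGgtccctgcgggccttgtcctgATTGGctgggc
In the 250 bases before the start, the response element matched HLA-F once and B2M at a pair of overlapping places, and 3.02% of 35116 RefSeq promoters hold it. The shorter form matched HLA-B and HLA-C, and 6.56% of promoters hold it. TGACG was found in HLA-B, HLA-C and B2M (21.2% of promoters) and CCAAT in all 4 genes shown (32%). These are letter matches and not measured binding. Over the whole 300-base windows HLA-B and HLA-C were 88.5% identical, HLA-B and HLA-F 79.7%, HLA-C and HLA-F 78.9%, and B2M 49.4% to 52% identical to the other 3.

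HLA-B encodes one of the classical heavy chains, which present varied peptides to CD8 T cells. Hypoxia replicates 1 and 2 held 4 HLA-B peaks each, normoxia replicates 1 and 2 held 0 each, and the EU library held 2. Both hypoxia libraries thus lay above both normoxia libraries, and HLA-B was the only member with a peak in both hypoxia libraries and in neither normoxia library. That 1 of 5 stands beside 15.3% of all 3226 genes with a peak in these 4 libraries. The reverse pattern, a peak in both normoxia libraries and in neither hypoxia library, was seen in 0 of the 5 and in 0.155% of those genes. The difference of 4 peaks (4 ± 0 against 0 ± 0, SD, n = 2) had p = 0.333 by the exact two-sided permutation test, the smallest that 2 libraries against 2 allow, and an adjusted p of 1. The normoxia condition list, by contrast, held 3 HLA-B peaks, all inside the HLA-B peaks of hypoxia replicate 2, although neither normoxia library held any.

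The HLA-B peaks recurred at the same places. A peak at chr6:31353971-31354597 (hg38, minus strand), made of blocks of 326 and 119 bases near the 3′ end of the gene, was identical in both hypoxia libraries, the EU library and the hypoxia condition list. A second peak began at 31355219 in all 3 libraries and ended at 31355757, 31355855 and 31355707 in hypoxia replicates 1 and 2 and the EU library. The other 2 peaks, nearer the 5′ end, were called in the hypoxia libraries alone among the 5 libraries. In hypoxia replicate 1 they lay at chr6:31356250-31356497 and chr6:31356793-31357040, and in hypoxia replicate 2 each was wider on one or both sides. Every base of HLA-B covered in hypoxia replicate 1 (1387) was also covered in replicate 2 (1782), so that 77.8% of the bases covered in either were shared, against a median of 31.1% over 682 genes with a peak in both. The EU peaks covered 841 bases, all of them also covered in both hypoxia libraries. Peaks covered 42% and 53.9% of the HLA-B span, introns included, in hypoxia replicates 1 and 2. The part of such wide cover in the sharing was not tested.

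The peak nearest the 5′ end of HLA-B has an uncertain owner. On the opposite strand the lists name XXbac-BPG248L24.12, with a peak at chr6:31356796-31357043 in hypoxia replicate 1 and chr6:31356746-31357043 in hypoxia replicate 2, almost on top of the HLA-B peak. The handling of strand is not given by any source used here, and the 2 genes cannot be told apart there. No other gene name had a peak on the span of a member in any list.

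HLA-C encodes the classical heavy chain that is also the main class I ligand of killer-cell immunoglobulin-like receptors on NK cells. HLA-C peaks numbered 3 and 3 in hypoxia replicates 1 and 2, 3 and 0 in normoxia replicates 1 and 2, and 3 in the EU library. The groups therefore overlapped: normoxia replicate 1 matched the hypoxia libraries and normoxia replicate 2 stood apart. The mean was 3 ± 0 in hypoxia and 1.5 ± 2.121 in normoxia (SD, n = 2), a difference of 1.5 with an exact permutation p of 1. HLA-C and B2M had a peak in both hypoxia libraries and normoxia replicate 1 and none in normoxia replicate 2, as did 1.43% of the 3226 genes.

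The middle HLA-C peak, chr6:31270216-31271393 (minus strand), joined blocks of 270 and 321 bases across a gap and was identical in both hypoxia libraries and the hypoxia condition list. In normoxia replicate 1 the same ground was held by 2 peaks, chr6:31270216-31270364 and chr6:31270462-31271393, so its 3 peaks mark fewer sites than the 3 of the other libraries. The peak nearest the 5′ end was missing from normoxia replicate 1. It spanned 99 bases in hypoxia replicate 1 (chr6:31271688-31271786), 492 in hypoxia replicate 2 (chr6:31271639-31272130) and 295 in the EU library (chr6:31271639-31271933). In hypoxia replicate 2 it reached 38 bases past the RefSeq start of the gene. Of 1625 HLA-C bases covered in any of the 5 libraries, 642 (39.5%) were covered in 4, and none in normoxia replicate 2.

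B2M encodes the light chain shared by all class I molecules. It lies on chromosome 15, outside the complex, and is no close copy of the heavy chain genes. Its peaks numbered 3 and 2 in hypoxia replicates 1 and 2, 3 and 0 in normoxia replicates 1 and 2, and 3 in the EU library. As for HLA-C, only normoxia replicate 2 stood apart, and the groups overlapped. The difference in means, 2.5 ± 0.7071 against 1.5 ± 2.121 (SD, n = 2), was 1 peak with an exact permutation p of 1. Without normoxia replicate 2 the sign turned, to -0.5.

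The B2M peaks recurred at the same places in 4 libraries. A peak at chr15:44715484-44715733 (250 bases, plus strand) was identical in hypoxia replicate 1, normoxia replicate 1 and the EU library, and hypoxia replicate 2 held it with a start 50 bases earlier. The peak nearest the 3′ end began at 44717679 in all 4 libraries that had it and ended at 44718079, 44718128, 44717979 and 44718128 in hypoxia replicates 1 and 2, normoxia replicate 1 and the EU library. A small peak near the start of the gene, chr15:44711577-44711990, had blocks of 37 and 64 bases and began 60 bases after the RefSeq start. It was identical in hypoxia replicate 1 and normoxia replicate 1, extended further in the EU library, and was absent from hypoxia replicate 2. Of 901 bases covered in any library, 551 (61.2%) were covered in 4. Hypoxia replicate 1 and normoxia replicate 1 shared 86.7% of the bases covered in either, against a median of 23.7% over the 76 genes with a peak in both. That is more than the 76.5% shared by the hypoxia replicates. The part of peak width in this sharing was not tested.

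**Figure D1:**
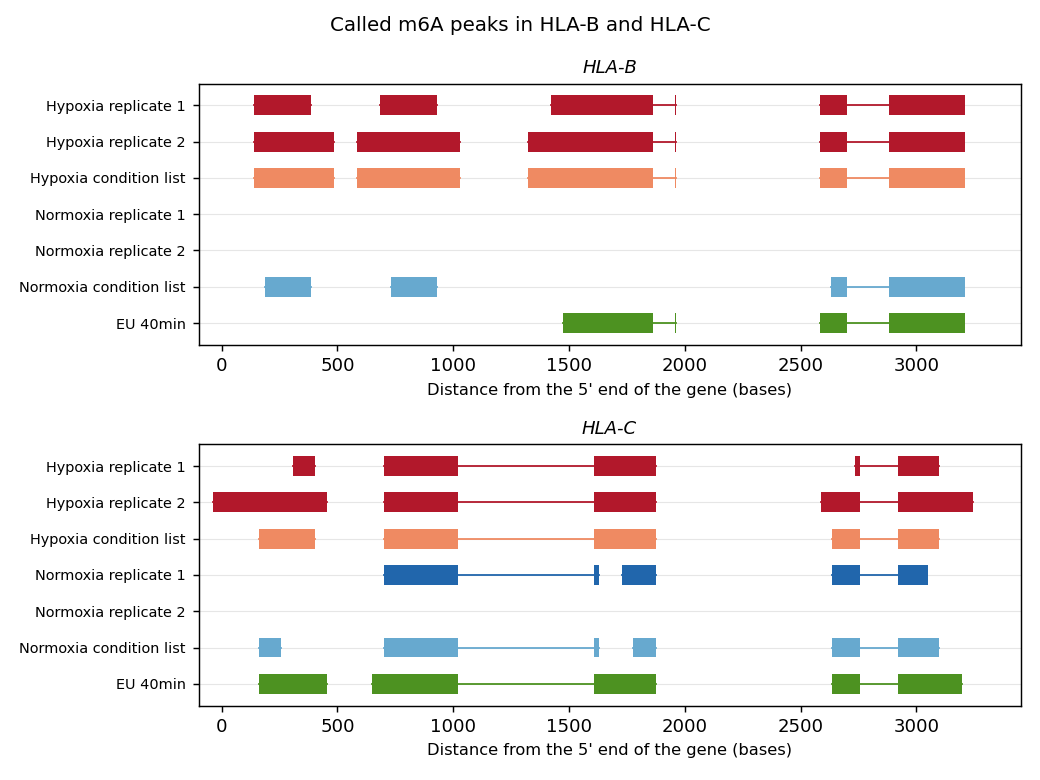
Called m6A peaks in HLA-B and HLA-C in the 7 peak lists, drawn by distance in bases from the RefSeq 5′ end of each gene; filled boxes are the blocks of a peak and lines join blocks of one peak. HLA-B has 4 peaks in each hypoxia library and none in the normoxia libraries, while HLA-C has 3 peaks in both hypoxia libraries and in normoxia replicate 1.

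HLA-E encodes a non-classical heavy chain that presents leader peptides of other class I molecules to the NKG2A and NKG2C receptors. It had 5 peaks in hypoxia replicate 2, 4 in the EU library and 0 in hypoxia replicate 1 and both normoxia libraries. Its presence in hypoxia thus rested on 1 library, and the mean difference of 2.5 peaks (2.5 ± 3.536 against 0 ± 0, SD, n = 2) had an exact permutation p of 1. HLA-E and HLA-F were the 2 members with a peak in hypoxia replicate 2 alone of these 4 libraries, as were 39% of the 3226 genes. In the condition lists, too, both had peaks in hypoxia only, as had 62.8% of 3308 genes with a peak in either condition list. HLA-B, HLA-C and B2M had peaks in both (16.9% of genes), and no member had them in the normoxia condition list only (20.3% of genes).

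The HLA-E peaks of hypoxia replicate 2 were spread along the gene. The widest, chr6:30490260-30492768 (plus strand), joined 6 blocks totalling 745 bases, the most blocks of any peak in the 5 genes. A peak of 497 bases at chr6:30492916-30493412 followed it. The 4 EU peaks were narrow, from 100 to 199 bases, and all of their 598 bases lay inside bases covered in hypoxia replicate 2 (1840). Sharing was 32.5% of the bases covered in either, close to the median of 28.7% over 858 genes with a peak in both.

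HLA-F encodes another non-classical heavy chain, seen on activated immune cells and able to bind NK receptors. It had 2 peaks in hypoxia replicate 2, 2 in the EU library and none in the other 3 libraries, and the mean difference of 1 peak (1 ± 1.414 against 0 ± 0, SD, n = 2) had an exact permutation p of 1. Both peaks lay in the first part of a gene span of 15099 bases. In hypoxia replicate 2 they were chr6:29724213-29724312 and the 3-block peak chr6:29725144-29726062 (plus strand). The EU peaks began at the same 2 bases and ended at 29725044 and 29725533.

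**Figure D2:**
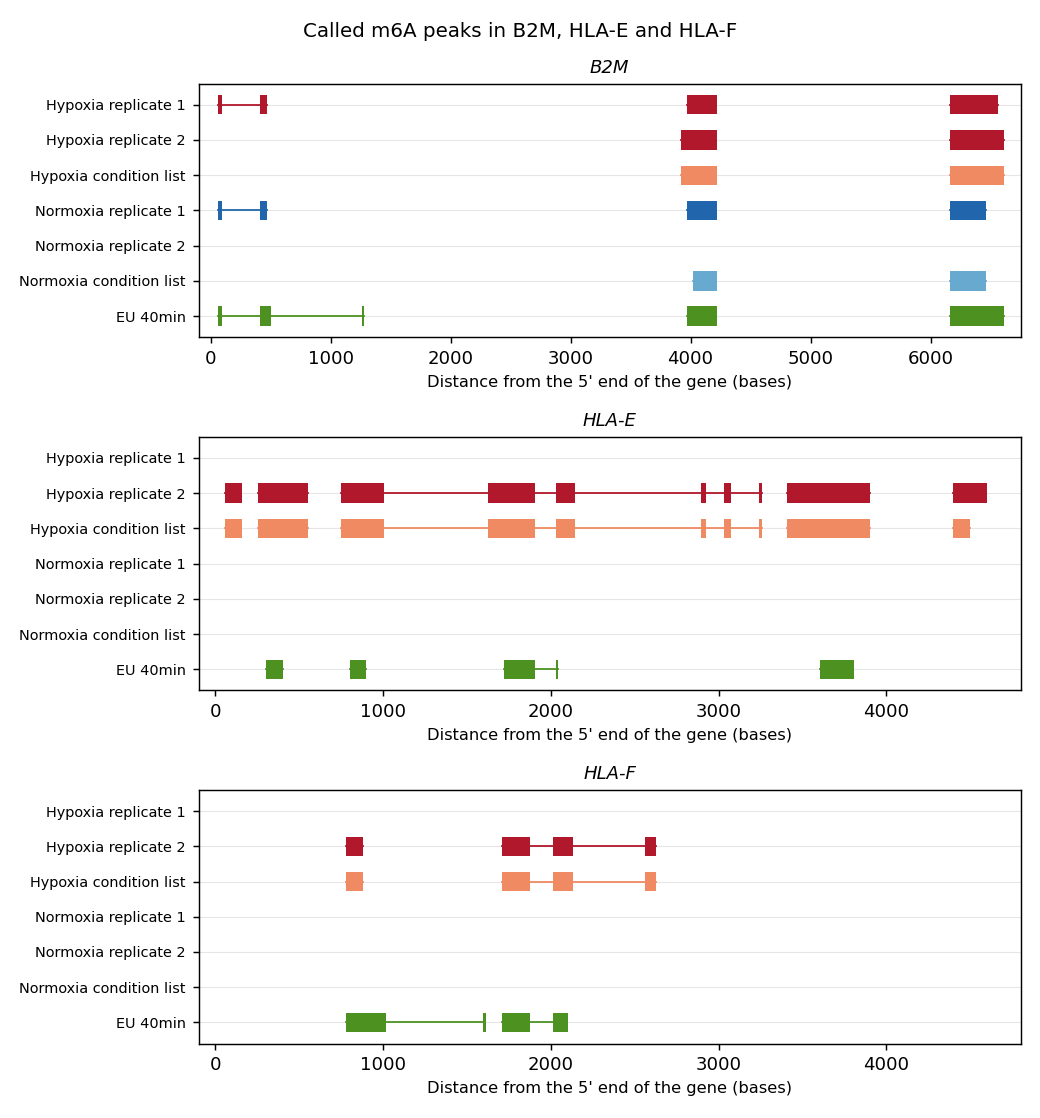
Called m6A peaks in B2M, HLA-E and HLA-F in the 7 peak lists, drawn by distance in bases from the RefSeq 5′ end, with boxes for blocks and lines joining blocks of one peak; the HLA-F panel ends before the gene's 3′ end because no peak lay beyond. The B2M peaks line up in 4 libraries, and HLA-E and HLA-F have peaks in hypoxia replicate 2, the hypoxia condition list and the EU library.

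Taking the 5 genes as a group, 3 and 5 had a peak in hypoxia replicates 1 and 2, 2 and 0 in normoxia replicates 1 and 2, and 5 in the EU library. Over the 4327 genes with a peak in any of these libraries, the shares were 29.1%, 49.7%, 3.21%, 20.7% and 55.2%. Normoxia replicate 2 thus held peaks in more genes than normoxia replicate 1 (897 against 139) but in none of the 5. Of the 682 genes with a peak in both hypoxia libraries, 78.9% likewise had none in normoxia replicate 2. The member peaks numbered 10 and 16 in hypoxia and 6 and 0 in normoxia, a mean of 13 ± 4.243 against 3 ± 4.243 (SD, n = 2). They covered 3026 and 6398 bases in hypoxia and 1393 and 0 in normoxia, or 4712 ± 2384 against 696.5 ± 985. Each of the 5 genes had more peaks on average in hypoxia, as had 79% of the 3226 genes, but not once the lists were brought to 1 length. The hypoxia libraries were above both normoxia libraries on all 3 measures. This group total was given no test.

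Read against the length of each list, the order was another for normoxia replicate 1. The 6 member peaks of normoxia replicate 1 made up 2.83% of its peaks, against 0.347% and 0.242% in hypoxia replicates 1 and 2 and 0.278% in the EU library, and normoxia replicate 2 stayed at 0. Of the 139 genes of normoxia replicate 1, 13 (9.35%) had 3 or more peaks, and HLA-C and B2M were among them. HLA-C and B2M also had peaks in hypoxia replicate 1, as did 54.7% of the 139 genes. Both were found besides in hypoxia replicate 2 (47.5% of the 139) and, beyond that, in the EU library (35.3%). With each library shortened to the 212 peaks of smallest deposited p, the difference in member peaks turned from 10 to -3 and that in members with a peak from 3 to -1. HLA-C and B2M each turned to -1.5 peaks, and HLA-B, HLA-E and HLA-F came to 0. Both hypoxia libraries, like normoxia replicate 2, then held 0 member peaks. The turned sign therefore rested on the 6 peaks of normoxia replicate 1 alone, the list that was not shortened, and without that library the difference was 0.

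**Figure D3:**
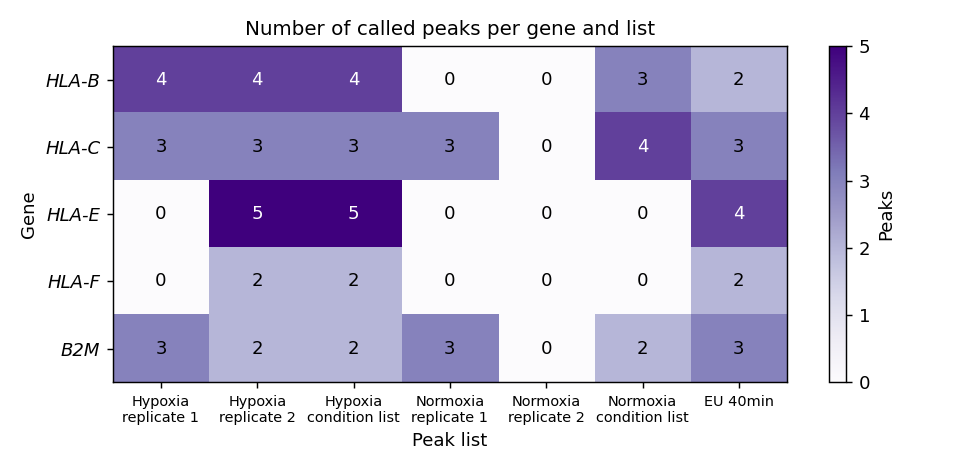
Number of called peaks per gene (rows) in each peak list (columns), printed in each cell and shown by colour. HLA-B is at 4 in both hypoxia libraries and 0 in both normoxia libraries, and normoxia replicate 2 is at 0 for all 5 genes.

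The deposited p of a peak, the authors' own value, ranked the members differently from list to list. Rank is given as a percentage of the list, where a small value is a small p. HLA-B peaks lay between 18.3% and 19.8% in hypoxia replicate 1 (p from 2.5e-06 to 2.8e-06), between 51.7% and 53% in hypoxia replicate 2 and between 94% and 98.9% in the EU library. HLA-C peaks ranked between 87% and 93.3% in hypoxia replicate 1, 67.5% and 69.5% in hypoxia replicate 2, 14.6% and 36.8% in normoxia replicate 1, and 80.7% and 89.9% in the EU library. For B2M the ranges were 82.9% to 99.1%, 76% to 84.1%, 4.72% to 58% and 36.6% to 65.8%. The B2M peak nearest the 3′ end was 10th of the 212 peaks of normoxia replicate 1, with a deposited p of 1.7e-07. HLA-E led the members in the EU library, where its 4 peaks shared a p of 1.9e-06 and a rank of 17.5%. HLA-F peaks ranked at 93% in hypoxia replicate 2 and 42.6% in the EU library. Ranks from lists of different length do not show a change in methylation. Peaks of 1 gene often carried the same p within a list, so they are not independent calls.

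**Figure D4:**
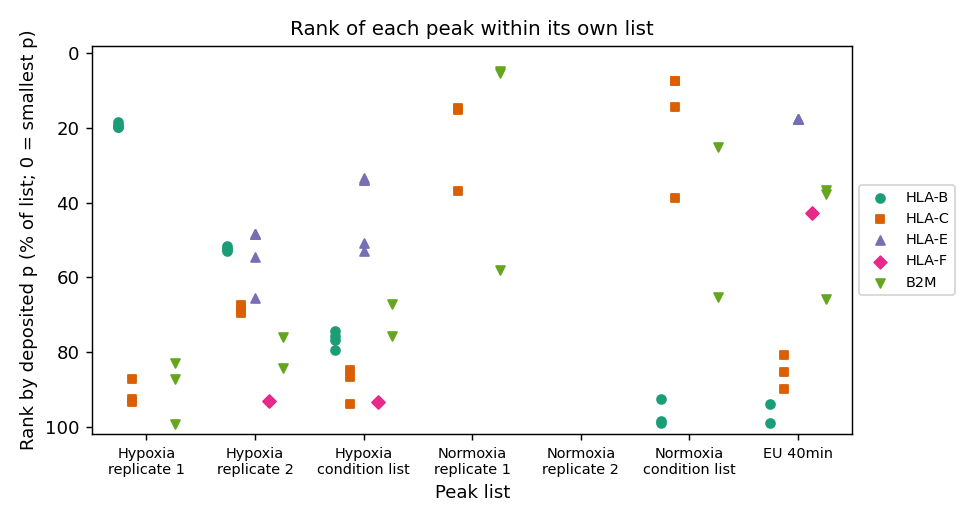
Rank of each member peak within its own list by deposited p, in percent of the list (0 is the smallest p, plotted at the top); each point is 1 peak and colour gives the gene. HLA-B peaks sit near 20% in hypoxia replicate 1 and beyond 90% in the EU library and the normoxia condition list, and normoxia replicate 2 has no point.

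Most member peaks recurred in position. Of the 10 member peaks of hypoxia replicate 1, 9 (90%, exact binomial interval 55.5 to 99.7, counting error only) were overlapped by a peak of hypoxia replicate 2, against 47.4% of all its peaks. In reverse, 9 of the 16 of hypoxia replicate 2 (56.2%) were overlapped by replicate 1, against 19.2% of all. The 1 exception in replicate 1 was the small B2M peak near the start of the gene. All 6 member peaks of normoxia replicate 1 were overlapped by hypoxia replicate 1 (52.8% of all its peaks) and by the EU library (55.7%), and 5 by hypoxia replicate 2 (59.9%). Of the 14 EU peaks, 13 were overlapped by hypoxia replicate 2, against 29.7% of all EU peaks, 8 (57.1%) by hypoxia replicate 1, against 15.6%, and 5 (35.7%) by normoxia replicate 1, against 2.3%. No member peak was overlapped by normoxia replicate 2, which had none. In the hypoxia libraries member peaks were wide by their means per gene. These means ran from 250.7 to 346.8 bases in hypoxia replicate 1 and from 225 to 525.3 in hypoxia replicate 2. The median peak of these lists, an unlike measure, had 150 and 151 bases, and single member peaks were as narrow as 99. In the EU library HLA-E averaged 149.5 bases, below the list median of 199, and the other members lay above it. An overlap needed only 1 base, and the part of width in these shares was not tested. The shares over all peaks also include genes without a peak in the second list. Of 1258 genes of hypoxia replicate 1, 682 had a peak in hypoxia replicate 2, as had all 3 members found in replicate 1. Of 2389 EU genes, 858 had one there, as had all 5 members. The part of this in the gaps was not tested. Peaks of 1 gene share a transcript and its level, and none of these shares was tested.

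Many of the member peaks crossed from one block to another. Peaks of 2 or more blocks made up 5 of 10 in hypoxia replicate 1 (50%, against 35.92% of all its peaks), 6 of 16 in hypoxia replicate 2 (37.5%, against 36.69%), 3 of 6 in normoxia replicate 1 (50%, against 29.72%) and 8 of 14 in the EU library (57.1%, against 19.83%). EU peaks of HLA-C and HLA-B skipped the same gaps as those of the hypoxia libraries. The HLA-C gap from 31270485 to 31271073, for example, was skipped in both hypoxia libraries, normoxia replicate 1 and the EU library. In B2M the gap from 44711613 to 44711927 was skipped in 3 libraries. Blocks may follow an annotation that no source used here names, and whether the reads themselves were spliced was not tested. Nor was the part of peak width in these shares, although most members had peaks wider than the median of their list.

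HLA-B and HLA-C, whose spans are nearly equal (3305 and 3344 bases), had peaks at like distances from their 5′ ends. Measured from the 5′ end, 747 of the bases covered in hypoxia replicate 1 were covered at the same distance in both genes, 53.9% of those of HLA-B and 84.2% of those of HLA-C. In hypoxia replicate 2 it was 1294 bases (72.6% and 82.1%), and in the EU library 597 (71% and 44.9%). In normoxia replicate 1 HLA-C had 3 peaks and HLA-B none. No share expected from the wide cover of both spans was worked out. What part that cover or shared reads play in the likeness was not tested. Per length, peaks covered 42% and 53.9% of the HLA-B span in hypoxia replicates 1 and 2, 26.5% and 47.1% of HLA-C, 11.3% and 11.3% of B2M, 39.3% of HLA-E and 2.98% of HLA-F in replicate 2. These spans include introns.

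The genes with the most similar peak numbers were sought over the 5 libraries, by the sum of absolute differences among 4325 genes. For HLA-B the closest were PTPRC, the leukocyte surface phosphatase CD45 (sum 0, with 4, 4, 0, 0 and 2 peaks), CD3E, a chain of the T cell receptor complex, and CTSW, a protease of cytotoxic lymphocytes. CD3E and CTSW were 2 of 9 genes tied at a sum of 1 and were named by covered bases. HLA-C was the closest gene to B2M (sum 1), with HMGB2, a chromatin protein, next (2). B2M and HMGB2 tied as the closest to HLA-C (sum 1). The next were VIM, an intermediate filament gene, for HLA-C and TMSB4X, an actin-binding peptide gene, for B2M (sum 3, where 5 genes tied in each case). For HLA-E the closest, at 0, were PHIP, PURB and AC114271.2. For HLA-F they were KDF1, C5orf30 and ASNSD1, and 13 genes tied there at 0, so the order among them was set by covered bases. Likeness here is in number of peaks only.

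Peaks of T and NK cell markers were counted beside those of the members. The labels name prostate cancer cells only, yet of 14 T and NK cell genes the hypoxia libraries held peaks in 11 and 13, the normoxia libraries in 6 and 0, and the EU library in 12. Their peaks summed to 24 and 29 in hypoxia, 8 and 0 in normoxia and 24 in the EU library. Some members and some of these markers had a peak in normoxia replicate 1, and none of either had one in normoxia replicate 2. Of the 13 with a peak in the 4 libraries, 5 (CD3D, CD3E, CD247, TRBC2 and PRF1) had one in both hypoxia libraries and in neither normoxia library, beside 15.3% of all genes. CD2, TRAC, NKG7, GZMA, GZMB and GNLY had one in both hypoxia libraries and normoxia replicate 1 and none in normoxia replicate 2. That is 6 of the 13, beside 1.43% of all genes, and all but CD2 also had one in the EU library. CD2 and PRF1 had none in the EU library, and CD8A had peaks there alone of the 5 libraries. Of 12 genes of prostate epithelium and prostate cancer, 2 and 4 had a peak in hypoxia, 1 and 5 in normoxia and 8 in the EU library. FOLH1, STEAP2, KRT8 and KRT18 had none in any list. The 4 B cell markers had no peak anywhere, 0 of 6 macrophage markers had one in the 5 libraries, and of 7 fibroblast and endothelial markers only PECAM1 had any, in hypoxia replicate 2. The part of these other cell type markers in the HLA and B2M results was not tested.

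**Figure D5:**
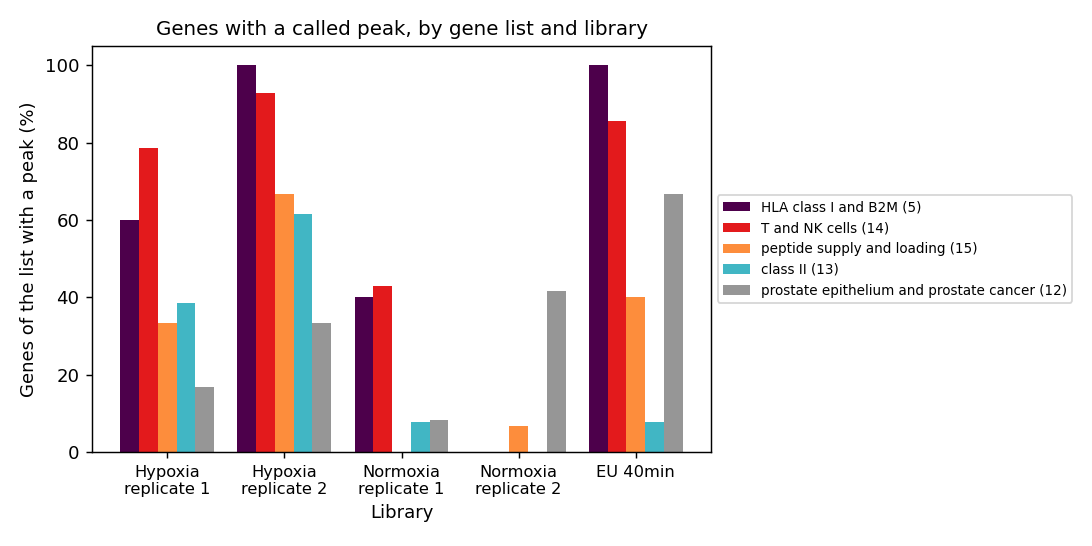
Share of the genes of each list with a called peak (percent, bars from 0) in the 5 pulled-down libraries, for the 5 class I genes and 4 other lists, with the number of genes in brackets. In normoxia replicate 2 the bars of the class I genes and of the T and NK cell genes are at 0, and that of the prostate genes is at 41.7%.

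Genes of the machinery that feeds class I with peptides were counted in the same way. Of 15 genes of peptide supply and loading, 5 and 10 (33.3% and 66.7%) had a peak in hypoxia replicates 1 and 2. In normoxia replicates 1 and 2 it was 0 and 1 (6.67%), and in the EU library 6 (40%). Over the 4327 genes with a peak in any of the 5 libraries, the shares were 29.1%, 49.7%, 3.21%, 20.7% and 55.2%. The listed genes, unlike those, include some with no peak in any list. The same all-gene shares stand beside the per-library counts of the other gene lists. Of the 15, TAP1 and TAP2, the chains of the peptide transporter, had a peak in both hypoxia libraries and in neither normoxia library. So had TAPBP, the loading factor tapasin, PSMB8, an immunoproteasome subunit, and PSME2, a proteasome activator subunit. That is 5 of the 10 with a peak in the 4 libraries, beside 15.3% of all genes. TAP1 had 3 and 3 peaks in hypoxia and 7 in the EU library, and TAP2 had 1, 7 and 6. TAPBP had 4, 3 and 4, PSMB8 3 in each, and PSME2 2, 6 and 2. The 1 gene with a normoxia peak was CALR, the chaperone calreticulin, with 1 in normoxia replicate 2. PSMB9, PSMB10, PSME1 and ERAP1 had peaks in hypoxia replicate 2 alone of the 5 libraries. None of these genes could pass the exact test.

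Among 19 regulators of class I and genes of the interferon response, 5 and 9 had a peak in hypoxia, 1 and 0 in normoxia and 4 in the EU library. IRF1, an interferon-induced transcription factor, had 1 and 5 peaks in the hypoxia libraries. JAK1, a kinase associated with cytokine receptors, had 8 and 8. RELA, a subunit of NF-kappaB, had 5 and 3, and SOCS1, a feedback inhibitor, 3 and 3. None of these 4 genes had a normoxia peak. They were 4 of the 9 with a peak in the 4 libraries, beside 15.3% of all genes. NLRC5, the transactivator of class I genes, had none in any list.

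The class II genes, whose products present to CD4 T cells and which most non-immune cells keep low, were compared next. Of 13, 5 and 8 had a peak in hypoxia, 1 and 0 in normoxia and 1 in the EU library. HLA-DRA, HLA-DRB1, HLA-DPA1 and HLA-DPB1 had peaks in both hypoxia libraries and in neither normoxia library, 4 of the 8 with a peak in the 4 libraries, beside 15.3% of all genes. HLA-DPA1 had 4 and 4 and HLA-DRA 2 and 2. CD74, the class II chaperone, had 4 and 5 peaks in hypoxia and 3 in normoxia replicate 1. In the EU library HLA-DRB1 alone had peaks (3). The EU library had a peak in all 5 of the class I and B2M genes, and the difference between the lists was not tested. HLA-DR genes too are close copies of each other.

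Further class I relatives and the receptors of class I had few peaks. Of 17 relatives, HLA-H, a pseudogene close in sequence to the heavy chain genes, had 1 and 2 peaks in the hypoxia libraries and 1 in the EU library. HLA-G, a non-classical heavy chain gene, had 1 in the EU library, and AZGP1 had 1 in normoxia replicate 2. MICA, MICB, MR1, HFE, FCGRT and the others had none in any list. Of 14 receptor genes, KLRC1, which encodes NKG2A, had 1 peak in hypoxia replicate 1, and the CD8 chains CD8A and CD8B had 4 and 2 in the EU library.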

How the data were processed

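MeRIP-seq libraries of V16A cells (5 pulled down, 5 inputs) were described by 7 peak lists. STAR and hg38 are named, without versions, per the submitters' processing notes; no source used here names the caller, the threshold or the use of inputs. Each list was in BED form, with 12 columns and no header. The p-value per peak deposited by the authors was read from column 5 by its values, and used to rank peaks only. Peaks were taken by gene name, with starts counted from 1, and overlapped by strand and block (at least 1 base). Depth is unknown.

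Peak number was tested for all 3226 genes with a peak in the 4 libraries of hypoxia and normoxia (exact two-sided permutation test, 6 assignments, Benjamini-Hochberg adjustment, threshold 0.05), in a script tested on simulated data (Python 3.11.15, numpy 2.4.6, matplotlib 3.10.9). By this test 0 genes passed, and 0 had an unadjusted p under 0.05. Named genes were the members, the 3 most alike in peak number, and list genes with a peak in both hypoxia libraries alone or in at least 4 of 5 libraries; other list genes were chosen after their values were seen. Members and lists were chosen with earlier results of these data known. Some genes that these lists cover are not reported here. Spans and promoters came from RefSeq (GRCh38.p14), where HLA-E had no promoter entry. Same-numbered replicates did not deviate together (correlation -0.0282 in peak number). Alternatives changed the threshold, peak width, list length, list type, gene assignment and replicates.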

Additional observations from a re-analysis of the deposited data

How the results depend on the processing

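Of 103 alternative values over 11 results, 76 were counted as unchanged. For single genes this meant the same direction, and for group differences a move smaller than the spread between replicates. Hypoxia-only members were judged by a fixed ratio and the overlapped share by its binomial interval. No p could fall under 0.333, or 0.5 for pairs, so no alternative could change the number of genes called. The replicate block leaves every difference as it is, so its values were bound to be unchanged. The 76 therefore overstates how far the results were tried. Keeping only the 50% of peaks that rank first by p in each list brought the hypoxia minus normoxia difference to 0 in members with a peak (3 as reported), 1 in member peaks (10) and 818 in covered bases (4016), the count of hypoxia-only members (a peak in both hypoxia libraries and in neither normoxia library, 1 as reported) to 0 and the overlapped share of hypoxia replicate 1 peaks to 0%; HLA-C and B2M reversed to -1.5 and -1 peaks while HLA-B came to 2 (4 as reported), HLA-E to 1.5 and HLA-F to 0. Shortening each library to 212 peaks gave -1 members, -3 peaks and -696.5 bases, 0 hypoxia-only members, -1.5 for HLA-C and -1.5 for B2M, and left no hypoxia replicate 1 member peak for the overlap. With the condition lists 2 members were hypoxia-only, HLA-C turned to -1, HLA-B came to 1, B2M to 0, HLA-E to 5 (2.5 as reported) and HLA-F to 2 (1). With peaks of at least 151 bases the share was 100% and HLA-F was at 0.5. Leaving out each replicate in turn gave 2 to 4 members, 7 to 13 peaks and 2330 to 5702 bases, and 1 to 3 hypoxia-only members (3 without hypoxia replicate 1, and 3 without normoxia replicate 1). B2M ranged from -0.5 (without normoxia replicate 2) to 2.5 (without normoxia replicate 1), and HLA-C from 0 to 3 for the same libraries. Without hypoxia replicate 2, HLA-E and HLA-F were at 0. The cause of these changes was not tested. With the replicate number as a block, 0 genes were called and HLA-B had an exact paired p of 0.5, the smallest that 2 pairs allow; the labels give a shared number only. Crossing the numbers, chosen after seeing the data because presence of a peak correlated at -0.105, also gave 0 calls. Assigning peaks by position in the RefSeq span left all of these values as they were. With 2 libraries a group no gene could pass, unknown depth leaves absent peaks unread, and near-identical copies leave the heavy chain genes uncertain.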
